A study of Mus musculus with 8 samples.

Results

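The SLC25 family of mitochondrial carriers was examined in brown adipose tissue (BAT) of wild-type (WT) and db/db mice. Its members were taken as every gene whose mouse symbol starts with Slc25a, which gave 47 of the 31053 genes in the count table. Of these, 39 had a summed count of 20 or more over the 8 libraries, and 35 passed the filter on low counts and could be tested. The comparison was between 4 WT mice (C57BL6/J) and 4 db/db mice (B6.BKS(D)-Lepr db/J), all males of 8 weeks, whose BAT was collected after a fast. db/db mice carry a mutation of the leptin receptor gene Lepr in every cell, eat in excess and become obese and diabetic, so that the mutation and the obesity cannot be told apart in this design. The study's methods text names different suppliers for WT and db/db mice, whereas its resource table names the same supplier for both. A difference of supplier could not be told apart from genotype either. The question was how the RNA of the carriers differs between obese and lean BAT.

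The inner mitochondrial membrane is closed to most metabolites, and SLC25 proteins are the carriers that let nucleotides, phosphate, keto acids, amino acids, acylcarnitines, iron and cofactors through it. They share a fold made of a repeated module, and each exchanges or imports its own substrates. In brown adipocytes the family is best known for Ucp1, which belongs to the same fold under another symbol and lets protons leak so that respiration gives heat. The carriers around it bring in the fuel and the cofactors of that respiration and export citrate for fat synthesis.

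Values are CPM, counts scaled to a common library size with the trimmed mean of M values (TMM), and replicate values are given in the order of mice 1 to 4 of each genotype. Total counts were 2374079 to 2615009 in WT and 2382722 to 3240074 in db/db, so that 3 counts, taken as the detection floor, equalled 0.902 to 1.33 CPM. Lepr had 0 counts in all 8 libraries, and so its transcript gives no check of the genotype. The labels name the cell type as stromal vascular fraction, a preparation without mature adipocytes, but Adipoq (1534 ± 240 CPM) and Ucp1 (2248 ± 387 CPM) were abundant in WT (SD, n = 4), and the libraries are described here as whole BAT. Markers of other cells moved with the genotype. Of 25 tested skeletal muscle markers, 23 were higher in db/db. The summed level of all 26 listed muscle markers was 575 to 2092 CPM in WT and 2665 to 13614 CPM in db/db, with db/db 1 the highest. All 13 macrophage markers and 4 of 5 white adipocyte markers were higher, and 7 of 8 brown adipocyte markers were lower. In such bulk tissue, fewer cells of a type and less RNA per cell cannot be told apart.

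Of the 35 tested members, 15 passed an edgeR adjusted p of 0.05, or 42.9%, beside 27.7% of all 9264 genes tested. The 9 lower members were Slc25a32, Slc25a33, Slc25a1, Slc25a16, Slc25a51, Slc25a20, Slc25a46, Slc25a39 and Slc25a11, or 25.7% of the tested members beside 11.9% of all genes. The 6 higher members were Slc25a12, Slc25a24, Slc25a10, Slc25a26, Slc25a37 and Slc25a4, or 17.1% beside 15.8% of all genes. The values of the genotypes did not overlap in 12 members, or 34.3% beside 28.1% of all genes. Of these, 9 were lower in db/db, where 12.7% of all genes were, and 3 were higher, where 15.3% of all genes were. The median log2 fold change of the tested members was −0.17, beside 0.0066 for all genes tested. These shares varied with abundance. Among the 13 members that averaged 50 CPM or more, 8 passed (1 higher and 7 lower), beside 41.5% of all genes at that level. Among the 22 below 50 CPM, 7 passed (5 higher and 2 lower), beside 23.5% of all genes there. A gene with values near the filter in WT can pass it through db/db alone, which among the members was so for Slc25a24, counted among the 6 higher.

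**Figure D1:**
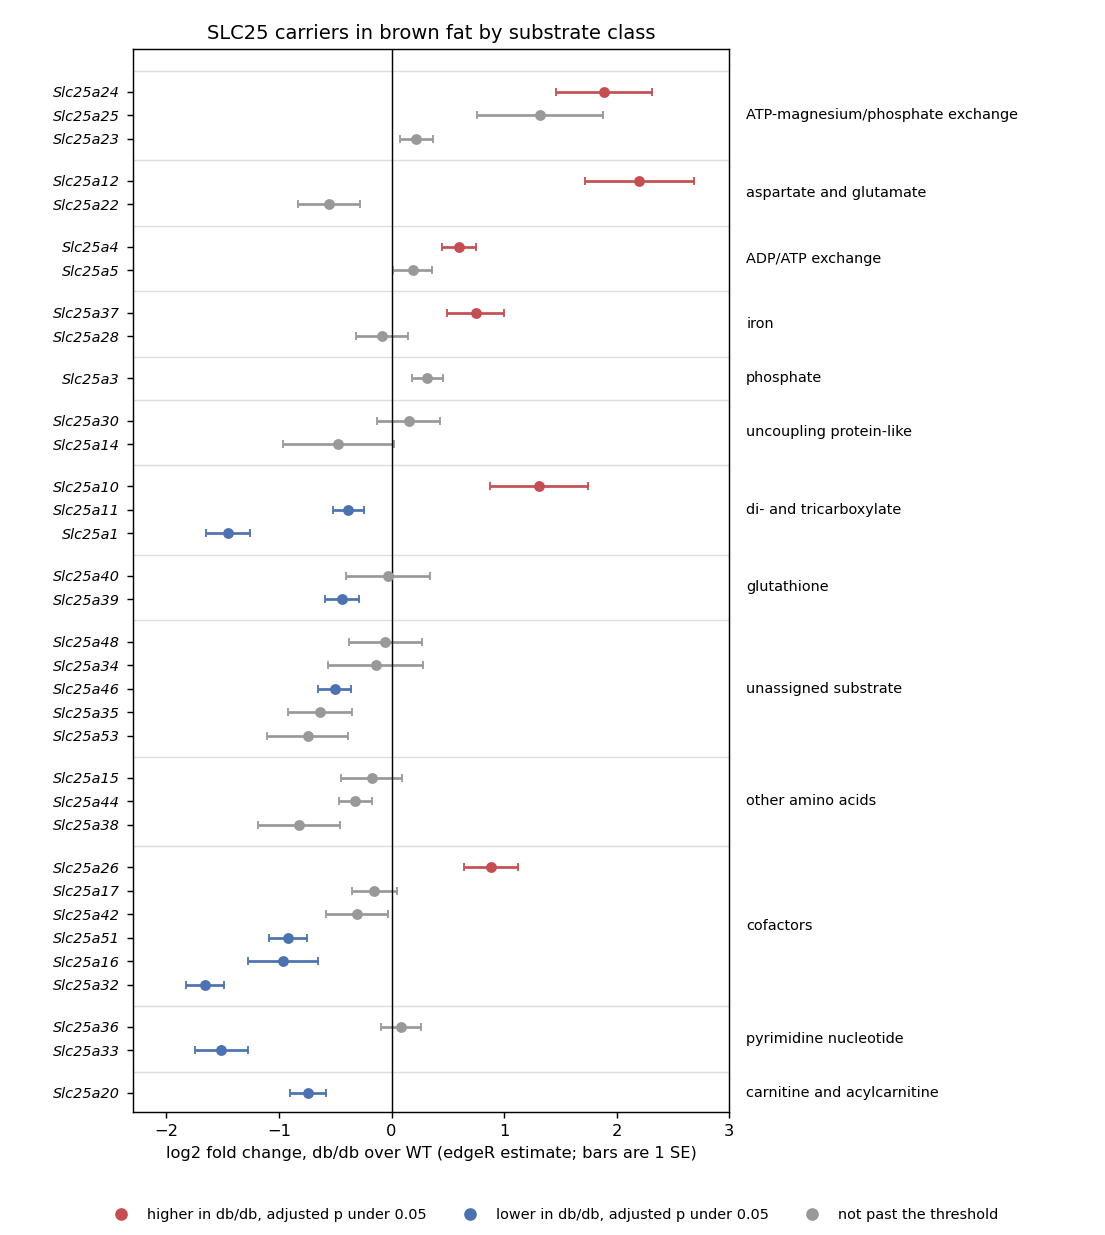
Log2 fold change of db/db over WT (x axis; points are edgeR estimates, bars are 1 SE) for 34 of the 35 tested carriers, grouped by substrate class (y axis). Red points are the 6 higher and blue points the 9 lower members at an adjusted p under 0.05; the lower members reach −1.66 (Slc25a32) and the higher ones 2.20 (Slc25a12).

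The family took a smaller share of the counts in db/db. The 47 members together took 0.335% to 0.385% of all counts in the WT mice and 0.292% to 0.316% in the db/db mice, without overlap. Of the counts of nuclear-encoded genes alone they took 0.498% to 0.583% in WT and 0.456% to 0.480% in db/db, again without overlap. In CPM the summed level went from 3654 ± 313 to 3063 ± 103 (SD, n = 4 each). Without Slc25a4, which rose, the sum went from 3156 ± 257 to 2311 ± 217 CPM, and leaving out a member that rose widens the fall. Slc25a51 (from 686 to 363 CPM) and Slc25a1 (from 368 to 134 CPM) had the largest falls. Together they carried most of the fall of the sum over all members. These sums are descriptions and were not tested. Counted per kb of annotated exon, Slc25a4 stood highest in both genotypes, with 211 CPM per kb in WT and 319.5 in db/db. In WT it was followed by Slc25a1 (169.9 CPM per kb), Slc25a51 (125) and Slc25a39 (95.6). In db/db the next places were taken by Slc25a5 (82.1 CPM per kb), Slc25a39 (70.4), Slc25a51 (65.9) and Slc25a1 (61.9). Whether the library covers whole transcripts or their 3′ ends was not stated, and such an order depends on it.

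**Figure D2:**
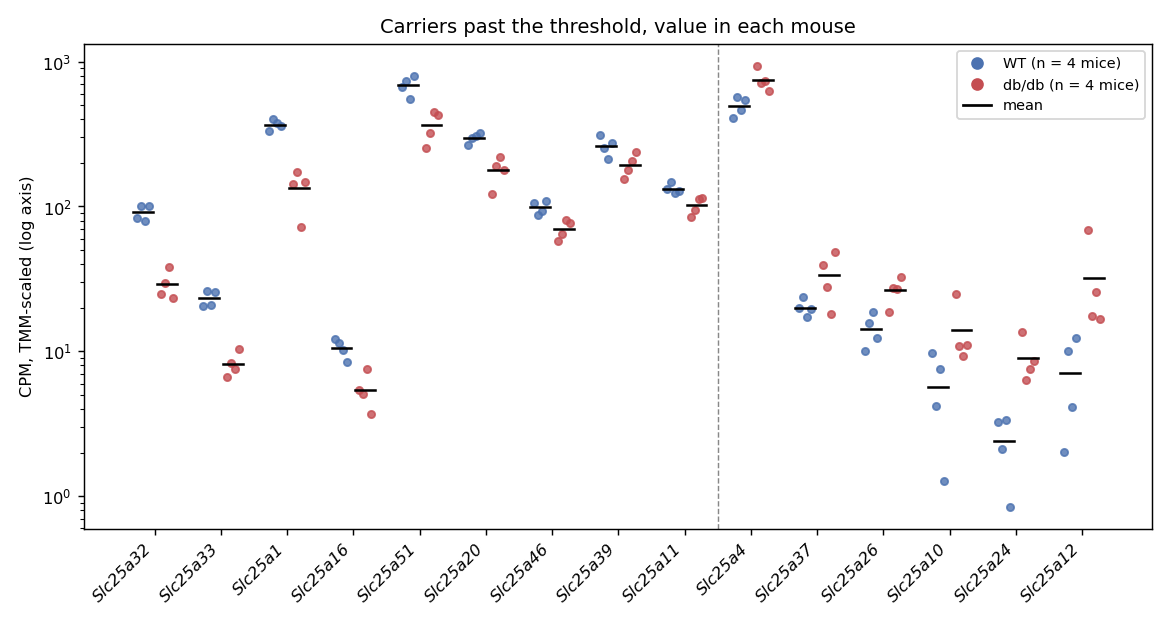
CPM on a log axis (y axis) of the 15 carriers past the threshold (x axis, ordered by log2 fold change), with 1 point per mouse, 4 WT in blue and 4 db/db in red, and the genotype mean as a black line. Left of the dashed line are the 9 lower members, of which Slc25a39 overlaps between genotypes; right of it are the 6 higher members, of which Slc25a37, Slc25a26 and Slc25a10 overlap.

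Promoters of 4 carriers are shown first, because they belong to the abundant pair of ADP/ATP carriers, of which Slc25a4 rose and Slc25a5 did not pass the test, and to Slc25a1 and Slc25a33, which both fell. Each is the window from 250 bases before to 50 bases after the gene's RefSeq start, 5′ to 3′ on the gene's strand, from RefSeq on GRCm38.p6, the patch release of the build of the counts. This start is not always that of the gene spans given with the values, which are from GENCODE: it lies 222 bases downstream for Slc25a4, 10 downstream for Slc25a33 and 54 upstream for Slc25a5, and is the same base for Slc25a1. Capitals mark matches on either strand to the E-box CACGTG, the CCAAT box CCAAT and the GC box GGGCGG.
Slc25a4 (chr8:46211013-46211312, minus strand): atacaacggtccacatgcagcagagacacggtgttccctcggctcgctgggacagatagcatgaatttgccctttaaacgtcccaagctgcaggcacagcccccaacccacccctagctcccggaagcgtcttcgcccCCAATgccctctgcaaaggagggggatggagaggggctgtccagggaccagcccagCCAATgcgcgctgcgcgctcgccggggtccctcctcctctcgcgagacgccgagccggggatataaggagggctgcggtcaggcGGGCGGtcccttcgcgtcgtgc
Slc25a5 (chrX:36795347-36795646, plus strand): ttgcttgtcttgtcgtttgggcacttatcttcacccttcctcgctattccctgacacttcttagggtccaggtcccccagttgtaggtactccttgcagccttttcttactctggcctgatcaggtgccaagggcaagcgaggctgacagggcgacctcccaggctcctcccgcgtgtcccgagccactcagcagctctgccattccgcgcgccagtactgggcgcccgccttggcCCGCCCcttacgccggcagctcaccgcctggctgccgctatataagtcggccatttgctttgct
Slc25a1 (chr16:17928170-17928469, minus strand): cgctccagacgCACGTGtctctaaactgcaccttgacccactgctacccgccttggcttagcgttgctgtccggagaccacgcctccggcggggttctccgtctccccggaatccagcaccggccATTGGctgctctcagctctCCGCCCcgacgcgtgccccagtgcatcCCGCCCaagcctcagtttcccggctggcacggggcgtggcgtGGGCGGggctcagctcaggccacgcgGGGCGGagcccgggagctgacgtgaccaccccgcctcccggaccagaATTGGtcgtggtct
Slc25a33 (chr4:149774218-149774517, minus strand): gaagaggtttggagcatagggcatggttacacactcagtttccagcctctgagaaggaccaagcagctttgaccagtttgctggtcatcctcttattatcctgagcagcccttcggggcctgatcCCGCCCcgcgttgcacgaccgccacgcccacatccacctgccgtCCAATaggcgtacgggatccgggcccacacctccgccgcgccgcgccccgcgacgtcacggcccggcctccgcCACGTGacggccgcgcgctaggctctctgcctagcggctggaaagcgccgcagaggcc

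The E-box CACGTG occurs once in the window of Slc25a1 and once in that of Slc25a33, and in neither ADP/ATP carrier. It is the core letters bound by several basic helix-loop-helix factors. Windows were found for 36 of the 47 members (46 windows) and for 10 of the 15 that passed the test. CACGTG was in the windows of 7 members, Slc25a1, Slc25a13, Slc25a14, Slc25a15, Slc25a31, Slc25a33 and Slc25a36. It was not in those of Slc25a11, Slc25a16, Slc25a20 and Slc25a39, which also fell. Counted by window, since a gene can have several, it was in 8 of 46 member windows, or 17.4%, beside 7.15% of all 32851 windows. Of these 7 members 5 were tested and 2 passed, Slc25a1 and Slc25a33, too few to set beside the 27.7% of all genes. CCAAT was in 47.8% of the member windows beside 37.41% of all, and GGGCGG in 82.6% beside 35.66%. The ETS motif CCGGAAG was in 15.2% beside 8.86%, with Slc25a4 and Slc25a20 among its 7 members. The nuclear receptor half-site AAGGTCA was in the window of Slc25a34 alone (2.2% beside 4.72%). CAGCTG, an E-box of myogenic factors, was in Slc25a11, Slc25a24, Slc25a34 and Slc25a53 (10.9% beside 16.3%), and not in Slc25a4. TGACGTCA, the cyclic AMP response element, was in Slc25a25 and Slc25a36 (4.3% beside 1.79%), and AAGATGGC, a YY1 motif, in Slc25a3 (2.2% beside 2.75%). None of these 8 motifs holds another on either strand. The motifs and the windows printed were chosen after the values had been seen, a match is a description of letters, and no match says only that the letters are not in that window.

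Of the 2 ADP/ATP carriers, 1 rose. Slc25a4 (ENSMUSG00000031633, chromosome 8, 46206797 to 46211284, minus strand) encodes the ADP/ATP carrier that prevails in heart and skeletal muscle and exchanges matrix ATP for cytosolic ADP. Its level was 411, 574, 465 and 539 CPM in the WT mice and 932, 716, 734 and 625 CPM in the db/db mice. Every db/db mouse lay above every WT mouse, and db/db 1 was the highest. The mean rose from 497 ± 73.3 to 752 ± 129 CPM (SD, n = 4 each; edgeR log2 change 0.60, SE 0.15, adjusted p 0.00636). Slc25a5, which encodes the ADP/ATP carrier of most other tissues, was 94.7, 122, 128 and 129.9 CPM in WT and 91.5, 173, 128 and 148 CPM in db/db. The genotypes overlapped, and db/db 1, the highest for Slc25a4, was the lowest for Slc25a5 (edgeR log2 change 0.19, SE 0.17, adjusted p 0.467, 95% interval −0.16 to 0.53). Of the 75-base windows of Slc25a5, 19.8% occur exactly in other genes, mostly processed pseudogenes, and its count is uncertain for that reason. The phosphate carrier Slc25a3, which supplies phosphate to ATP synthase, went from 249.7 ± 34.7 to 311 ± 41.4 CPM and did not pass the test (edgeR log2 change 0.32, SE 0.14, adjusted p 0.103, 95% interval 0.04 to 0.60).

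The calcium-dependent ATP-magnesium/phosphate carriers set the adenine nucleotide pool of the matrix. Slc25a24 (ENSMUSG00000040322, chromosome 3, 109123149 to 109168457, plus strand) was 3.24, 2.11, 3.38 and 0.849 CPM in WT and 13.5, 6.36, 7.54 and 8.56 CPM in db/db. All db/db mice lay above all WT mice, and WT 4 was under the detection floor. Its mean rose from 2.39 ± 1.18 to 9.0 ± 3.16 CPM (SD, n = 4 each; edgeR log2 change 1.88, SE 0.43, adjusted p 0.00292). Slc25a24 reached the filter level in 0 WT mice and in 4 db/db mice. It could thus be tested only through its level in db/db, and its p is no independent support of the rise. Its paralog Slc25a23 is far more abundant, at 107, 87.8, 87.9 and 87.0 CPM in WT and 84.2, 121, 121 and 105 CPM in db/db. It went from 92.5 ± 9.84 to 108 ± 17.3 CPM without passing the test (edgeR log2 change 0.22, SE 0.15, adjusted p 0.291). Slc25a25, which also did not pass (edgeR log2 change 1.32, SE 0.56, adjusted p 0.0909), was 3.55 to 5.73 CPM in 3 db/db mice and 17.5 CPM in db/db 4.

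Of the 2 pyrimidine nucleotide carriers, 1 fell. Slc25a33 (ENSMUSG00000028982, chromosome 4, 149744036 to 149774277, minus strand), which imports pyrimidine nucleotides used for mitochondrial DNA and RNA, was 20.6, 26.2, 21.0 and 25.9 CPM in WT and 6.62, 8.27, 7.54 and 10.4 CPM in db/db. The highest db/db mouse was below the lowest WT mouse. The mean fell from 23.4 ± 3.0 to 8.21 ± 1.62 CPM (SD, n = 4 each; edgeR log2 change −1.51, SE 0.23, adjusted p 0.000108), and it stayed past the threshold under every one of 17 alternatives. An antisense gene without counts, Gm13068, covers 14.9% of its exon bases. Slc25a36, the other carrier of this class, was 26.3, 25.7, 31.9 and 32.3 CPM in WT and 26.2, 30.2, 37.7 and 29.8 CPM in db/db and did not pass (edgeR log2 change 0.08, SE 0.18, adjusted p 0.774).

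Of the 3 di- and tricarboxylate carriers, 2 fell and 1 rose. Slc25a1 (ENSMUSG00000003528, chromosome 16, 17925223 to 17928219, minus strand), the citrate carrier that gives the cytosol the carbon for fatty acid synthesis, was 330.2, 405, 376 and 359.5 CPM in WT and 142, 173, 72.7 and 148 CPM in db/db. The genotypes stood far apart, and db/db 3 was the lowest mouse. The mean fell from 368 ± 31.2 to 134 ± 43.0 CPM (SD, n = 4 each; edgeR log2 change −1.45, SE 0.20, adjusted p 2.90e-05), 2.74-fold lower in db/db, and it passed under all 17 alternatives. Slc25a11 (ENSMUSG00000014606, chromosome 11, 70644196 to 70647479, minus strand), the oxoglutarate/malate carrier of the malate-aspartate shuttle, was 132, 146, 125 and 128 CPM in WT and 84.8, 94.5, 113 and 115 CPM in db/db. The genotypes did not overlap but lay close together, and the fall was small (edgeR log2 change −0.39, SE 0.14, adjusted p 0.0441). Rnf167 covers 8.92% of its exon bases on the other strand, and the call was lost without WT 1, WT 2, WT 4, db/db 1 or db/db 2 (adjusted p 0.0603 to 0.118). Slc25a10 (ENSMUSG00000025792, chromosome 11, 120491840 to 120499187, plus strand), the dicarboxylate carrier, moved the other way, with 9.71, 4.22, 7.52 and 1.27 CPM in WT and 25.0, 10.8, 9.31 and 11.2 CPM in db/db. Only db/db 1 stood well above the WT mice, and the genotypes overlapped (edgeR log2 change 1.31, SE 0.44, adjusted p 0.0324). Without db/db 1 its log2 fold change was 0.86 and no longer passed, and the call was also lost without WT 2 or WT 4. As a class they summed to 506 ± 36.1 CPM in WT and 249.9 ± 38.1 CPM in db/db (SD, n = 4 each), without overlap. Most of that fall came from Slc25a1.

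Slc25a20 (ENSMUSG00000032602, chromosome 9, 108662088 to 108684641, plus strand) encodes the carnitine/acylcarnitine translocase, the only carrier of its class, which brings long-chain acyl groups to the matrix for oxidation. It was 267, 296, 307 and 319.6 CPM in WT and 123, 191, 218 and 179.7 CPM in db/db. All 4 db/db mice were below all WT mice, and db/db 1 was the lowest. The mean fell from 297 ± 22.2 to 178 ± 40.2 CPM (SD, n = 4 each; edgeR log2 change −0.74, SE 0.16, adjusted p 0.00169).

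Slc25a12 (ENSMUSG00000027010, chromosome 2, 71271063 to 71367749, minus strand) encodes aralar, the aspartate/glutamate carrier of excitable tissues and a step of the malate-aspartate shuttle. Its level was 2.02, 10.1, 4.13 and 12.3 CPM in WT and 69.2, 17.5, 25.7 and 16.7 CPM in db/db. The genotypes did not overlap, and db/db 1 stood far above the other mice. The mean rose from 7.15 ± 4.86 to 32.3 ± 24.9 CPM (SD, n = 4 each; edgeR log2 change 2.20, SE 0.48, adjusted p 0.00234). Without db/db 1 its log2 fold change was 1.48 (adjusted p 0.00843). Slc25a13, its paralog citrin, was at 0 in 2 WT mice and at or under 2.11 CPM in the others, too low to be tested. The glutamate carrier Slc25a22 went from 16.9 ± 2.51 to 11.5 ± 4.33 CPM and did not pass (edgeR log2 change −0.55, SE 0.27, adjusted p 0.145).

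The 7 cofactor carriers summed to 1167 ± 172 CPM in WT and 717 ± 164 CPM in db/db (mean and SD of 4 mice), with no overlap between genotypes, and 3 of them fell and 1 rose. Slc25a32 (ENSMUSG00000022299, chromosome 15, 39091231 to 39112716, minus strand), which has been linked to folate and to FAD, had the smallest adjusted p of the family. It was 83.0, 101, 79.3 and 101 CPM in WT and 25.0, 29.6, 38.1 and 23.4 CPM in db/db. The lowest WT mouse, at 79.3 CPM, was far above the highest db/db mouse, at 38.1 CPM. Its mean fell from 91.1 ± 11.7 to 29.0 ± 6.60 CPM (SD, n = 4 each; edgeR log2 change −1.66, SE 0.17, adjusted p 2.09e-06), 3.14-fold lower in db/db, and passed under all 17 alternatives. Slc25a51 (ENSMUSG00000045973, chromosome 4, 45395923 to 45408766, minus strand) imports NAD, the electron acceptor of the matrix dehydrogenases. It was 671, 732, 550.1 and 792 CPM in WT and 254, 324, 446 and 429 CPM in db/db, with no overlap. The fall from 686 ± 103 to 363 ± 90.5 CPM (SD, n = 4 each; edgeR log2 change −0.92, SE 0.17, adjusted p 0.000645) was the largest of any member in CPM. It made up most of the fall of the class sum.

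Slc25a16 (ENSMUSG00000071253, chromosome 10, 62920633 to 62946498, plus strand), linked to coenzyme A in the matrix, was 12.1, 11.4, 10.1 and 8.49 CPM in WT and 5.41, 5.09, 7.54 and 3.72 CPM in db/db. The genotypes did not overlap at these low levels (edgeR log2 change −0.96, SE 0.31, adjusted p 0.0282), and the call was lost without WT 1, WT 2, db/db 1, db/db 2 or db/db 4 (adjusted p 0.0502 to 0.0801). Slc25a26 (ENSMUSG00000045100, chromosome 6, 94500331 to 94604672, plus strand), the importer of S-adenosylmethionine for mitochondrial methylation, was higher, with 10.1, 15.6, 18.8 and 12.3 CPM in WT and 18.7, 27.4, 27.0 and 32.7 CPM in db/db. Only db/db 1 lay within the WT range. The mean rose from 14.2 ± 3.80 to 26.4 ± 5.82 CPM (SD, n = 4 each; edgeR log2 change 0.89, SE 0.24, adjusted p 0.0101), and this rise passed under all 17 alternatives. Lrig1 covers 3.0% of its exon bases on the other strand. The coenzyme A carrier Slc25a42 (edgeR log2 change −0.31, SE 0.27, adjusted p 0.44) and the peroxisomal cofactor carrier Slc25a17 (edgeR log2 change −0.15, SE 0.20, adjusted p 0.622) did not pass.

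Of the 2 iron carriers 1 rose, and of the 2 glutathione carriers 1 fell, both with overlap between genotypes. Slc25a37 (ENSMUSG00000034248, chromosome 14, 69241848 to 69285112, minus strand) encodes mitoferrin 1, the mitochondrial iron importer of red cell precursors. It was 19.8, 23.6, 17.3 and 19.5 CPM in WT and 39.4, 27.7, 18.2 and 48.7 CPM in db/db. The genotypes overlapped through db/db 3, and db/db 4 and db/db 1 were highest (edgeR log2 change 0.75, SE 0.25, adjusted p 0.0345). The summed level of erythroid markers was 17015 CPM in db/db 4, 6473 to 7026 CPM in the other db/db mice and 3107 to 8716 CPM in WT, and its part in the Slc25a37 values was not tested. The call was lost without WT 1, WT 3, WT 4, db/db 1 or db/db 4 (adjusted p 0.0751 to 0.14). Mitoferrin 2, Slc25a28, found in most cells, was 22.7, 20.7, 30.1 and 36.5 CPM in WT and 19.0, 35.6, 26.2 and 22.7 CPM in db/db (edgeR log2 change −0.09, SE 0.23, adjusted p 0.82). Slc25a39 (ENSMUSG00000018677, chromosome 11, 102402985 to 102407946, minus strand), a carrier needed for mitochondrial glutathione, was 310.0, 255, 213 and 275 CPM in WT and 156, 178, 206 and 237 CPM in db/db. WT 3 lay within the db/db range, and the fall (edgeR log2 change −0.44, SE 0.15, adjusted p 0.04) was lost without any of WT 1, WT 2, WT 4, db/db 1, db/db 2 or db/db 3 (adjusted p 0.0558 to 0.11). Its paralog Slc25a40 went from 5.47 ± 0.579 to 5.37 ± 1.97 CPM (edgeR log2 change −0.03, SE 0.37, adjusted p 0.962).

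Among the carriers of other amino acids, none of 3 tested members passed in edgeR, although 2 had an unadjusted p under 0.05. Slc25a44, the carrier of branched-chain amino acids that brown adipocytes burn, went from 123 ± 15.5 to 98.9 ± 15.4 CPM (edgeR log2 change −0.32, SE 0.15, adjusted p 0.116, 95% interval −0.61 to −0.03). Slc25a38, which imports glycine for heme synthesis, went from 8.22 ± 1.23 to 4.61 ± 1.88 CPM (edgeR log2 change −0.82, SE 0.36, adjusted p 0.101), and the ornithine carrier Slc25a15 from 13.5 ± 4.16 to 11.9 ± 1.96 CPM (edgeR log2 change −0.17, SE 0.27, adjusted p 0.681). Slc25a14 and Slc25a30, which resemble uncoupling proteins, had log2 fold changes of −0.47 (adjusted p 0.52) and 0.15 (adjusted p 0.729) in edgeR. Of 5 tested members to which no substrate was assigned here, Slc25a46 passed. Slc25a46 (ENSMUSG00000024259, chromosome 18, 31556111 to 31609911, minus strand), an outer membrane protein of mitochondrial shape, was 106, 87.4, 93.6 and 109.5 CPM in WT and 58.1, 64.3, 81.1 and 77.0 CPM in db/db. All db/db mice lay below all WT mice (edgeR log2 change −0.50, SE 0.15, adjusted p 0.0157), the call was lost without WT 4 (adjusted p 0.0528), and B930094E09Rik covers 7.06% of its exon bases on the other strand. Slc25a53 (−0.74 (adjusted p 0.135) in edgeR), a low gene whose genotypes did not overlap, did not pass, nor did Slc25a35 (−0.64 (adjusted p 0.106)), Slc25a34 (−0.14 (adjusted p 0.844)) and Slc25a48 (−0.05 (adjusted p 0.924)). Slc25a35 shares 31.3% of its exon bases with Rangrf on the other strand and is uncertain.

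Of the members with a summed count of 20 or more, 4 were too low to test. Slc25a29, a carrier of basic amino acids, was 0.809, 2.95, 3.38 and 4.24 CPM in WT and 0.301, 0.636, 0.443 and 1.86 CPM in db/db. Slc25a47 was 2.97 to 4.64 CPM in WT and 1.49 to 4.88 CPM in db/db, Slc25a45 was 0.424 to 3.64 and 1.77 to 5.11 CPM, and Slc25a13 is described above. A further 8 members had fewer than 20 counts in all. Slc25a27 had 11, Slc25a43 5, Slc25a21 4, Slc25a2 3 and Slc25a18 1, and Slc25a41, Slc25a54 and Slc25a31 had 0 in all 8 libraries.

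Closely related carriers were then set against each other within each mouse, as the log2 ratio of their counts with 0.5 added. Library size cancels in such a ratio except through the added 0.5, which weighs on low counts such as those of Slc25a24 and Slc25a10 in WT. In 3 of 10 pairs the genotypes did not overlap, which gives the smallest p an exact two-sided permutation test of 4 against 4 allows (0.0286). After adjustment over the 10 pairs that p became 0.0952, so that no pair passed 0.05. The ratio of Slc25a33 to Slc25a36 was −0.60 to 0.02 in WT and −2.29 to −1.50 in db/db, a difference of −1.59. The ratio of Slc25a24 to Slc25a23 was −6.36 to −4.63 in WT and −4.21 to −2.62 in db/db, a difference of 1.70. The ratio of Slc25a10 to Slc25a11 was −6.43 to −3.74 in WT and −3.58 to −1.76 in db/db, a difference of 1.86. In each of these pairs the member that differed more was described above with its values, and the partner moved less. For Slc25a4 against Slc25a5 the ratio was 2.06 ± 0.15 in WT and 2.50 ± 0.61 in db/db (mean and SD of 4 mice; two-sided exact permutation p 0.257, adjusted 0.367). The wide spread in db/db came from db/db 1, at 3.35, whereas the other db/db mice lay between 2.05 and 2.52.

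**Figure D3:**
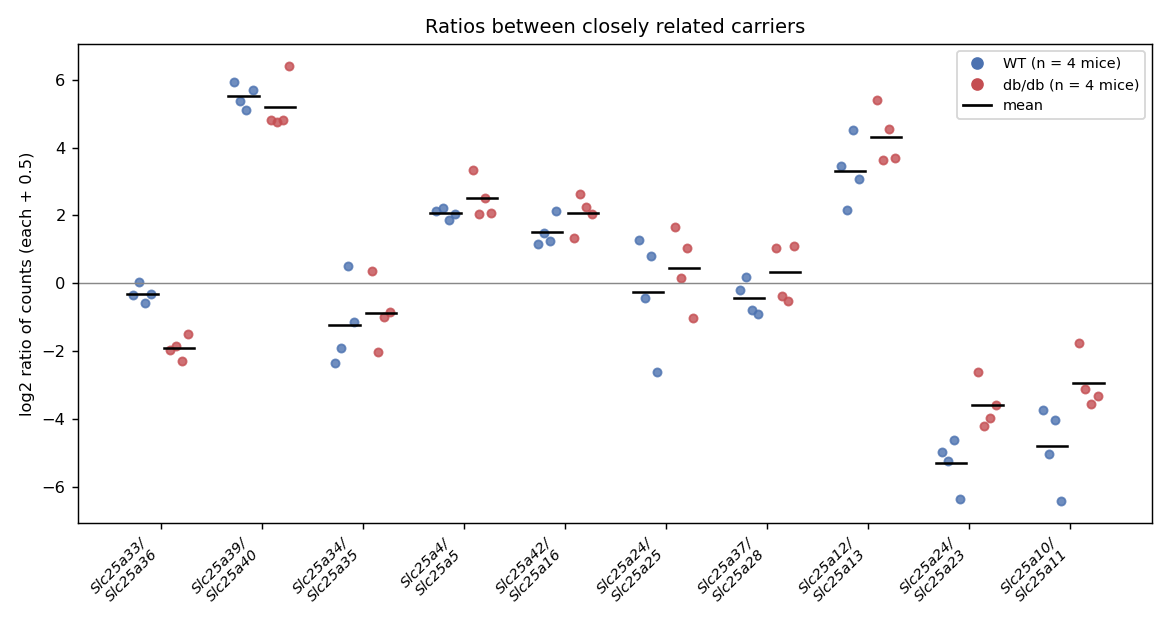
Log2 ratio of counts, each with 0.5 added (y axis), between the members of 10 pairs of related carriers (x axis), with 1 point per mouse, 4 WT in blue and 4 db/db in red, and the genotype mean as a black line. The genotypes are apart for Slc25a33 to Slc25a36, Slc25a24 to Slc25a23 and Slc25a10 to Slc25a11, and overlap in the other 7 pairs; db/db 1 stands at 3.35 for Slc25a4 to Slc25a5.

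Skeletal muscle RNA moved with part of the family. The order of the 8 mice by Slc25a12 was the same as their order by the summed level of 26 skeletal muscle markers. For Slc25a4, 6 of the 8 mice held the same place in both orders. Besides these, only Slc25a1 and Slc25a32 were compared in this way. For both, 0 of the 8 mice held the same place, which their lower level in every db/db mouse fixed in advance. The genotypes did not overlap in the muscle sum, Slc25a12 or Slc25a4 either, so that these orders could vary within a genotype alone. In a fit with the muscle score as a covariate, Slc25a4 had a log2 fold change of 0.17 (adjusted p 0.685) and Slc25a12 one of 0.30 (adjusted p 0.723). Slc25a26 remained higher and Slc25a1, Slc25a32 and Slc25a33 remained lower in that fit, and the other 11 calls were lost. The estimates of Slc25a39 and Slc25a11 shrank to −0.17 (adjusted p 0.717) and −0.23 (adjusted p 0.608). Others stayed nearer theirs, as Slc25a24 did at 1.61 (adjusted p 0.146) and Slc25a51 at −0.77 (adjusted p 0.06). The score was −1.27 to −0.051 in WT and −0.153 to 1.68 in db/db, nearly separate, so that it and the genotype can hardly be told apart in 8 mice. Without db/db 1, the mouse with the most muscle RNA, 4 members were higher and 6 lower. This mouse was also the lowest of all 8 for 13 of the 35 tested members, but how often it was the lowest among all genes was not counted.

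**Figure D4:**
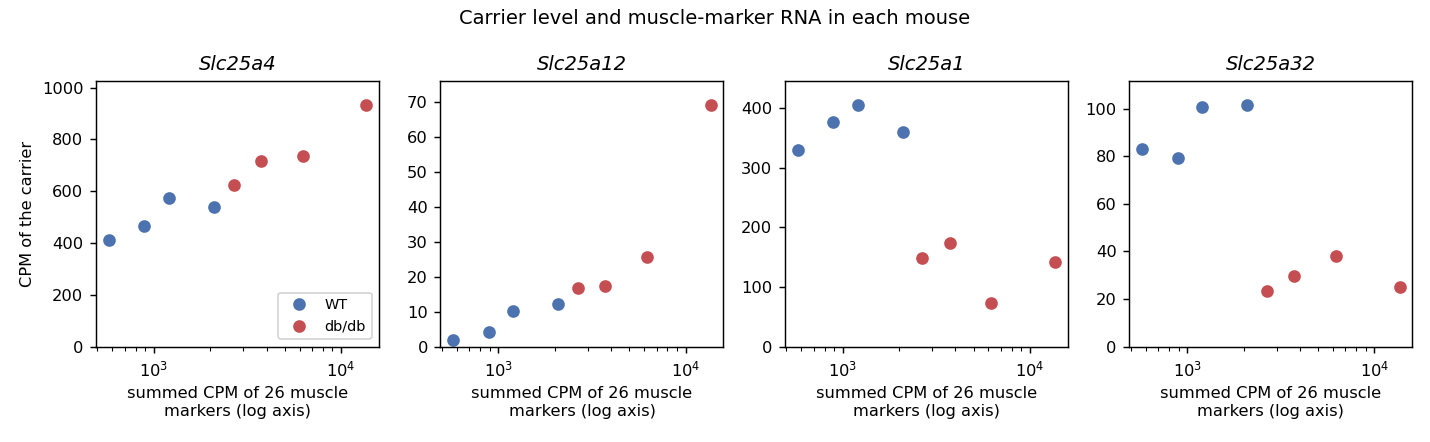
CPM of Slc25a4, Slc25a12, Slc25a1 and Slc25a32 (y axes, from 0) against the summed CPM of 26 skeletal muscle markers (x axes, log) in each of 4 WT (blue) and 4 db/db mice (red). Slc25a12 rises with the muscle sum from mouse to mouse up to 69.2 CPM in db/db 1, whereas Slc25a1 and Slc25a32 are low in every db/db mouse; the muscle sums of the genotypes do not overlap.

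Genes that work beside the carriers were read from lists of partners. The share of a list past the threshold is read beside the 27.7% of all genes tested. Among 5 genes of the same fold under other symbols, 3 fell and 1 rose (80%). Ucp1, the uncoupling protein of brown fat, was 1892 to 2754 CPM in WT and 1056 to 2027 CPM in db/db (edgeR log2 change −0.65, SE 0.19, adjusted p 0.0176), with overlap, and the call was lost without WT 4 or db/db 3 (adjusted p up to 0.0707). With the muscle score the log2 fold change of Ucp1 was −0.37 (adjusted p 0.441). Ucp3, found in muscle and brown fat, fell from 35.3 ± 16.3 to 16.8 ± 5.58 CPM (edgeR log2 change −1.06, SE 0.30, adjusted p 0.0126), and this was lost without WT 4 (adjusted p 0.0663). Ucp2, which is abundant in macrophages, was 10.5 to 18.7 CPM in WT and 40.3 to 57.3 CPM in db/db (edgeR log2 change 1.79, SE 0.20, adjusted p 4.41e-06). The summed level of 13 macrophage markers was 176 to 231 CPM in WT and 970 to 1768 CPM in db/db, and its part in the Ucp2 values was not tested. Mtch2, an outer membrane insertase of this fold, fell from 949.9 ± 97.8 to 469 ± 92.7 CPM (edgeR log2 change −1.02, SE 0.15, adjusted p 7.28e-05), and Mtch1 did not pass (edgeR log2 change −0.12, SE 0.14, adjusted p 0.55).

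Among 22 other transporters and channels tested, mitochondrial except for Abcd3, 6 fell and 1 rose, a share of 31.8% that is near that of all genes. Both subunits of the pyruvate carrier fell, Mpc1 from 119 ± 24.5 to 58.4 ± 13.7 CPM (edgeR log2 change −1.02, SE 0.18, adjusted p 0.000395) and Mpc2 from 671 ± 70.7 to 330.1 ± 58.8 CPM (edgeR log2 change −1.02, SE 0.15, adjusted p 5.45e-05). With the muscle score the log2 fold change of Mpc1 was −0.61 (adjusted p 0.131) and that of Mpc2 −0.91 (adjusted p 0.00886). On the other strand of Mpc1, 4930506C21Rik covers 23.1% of its exon bases. Abcd3, a peroxisomal fatty acid transporter, fell by 0.78 on the log2 scale, and Sfxn3, of the sideroflexin family of carriers, rose (edgeR log2 change 2.15, SE 0.41, adjusted p 0.000704).

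Around Slc25a20, 5 carnitine shuttle genes were tested, of which 1 rose and 2 fell (60.0%). Cpt1a, the liver form of the outer membrane acyltransferase, rose from 8.13 ± 3.44 to 17.6 ± 3.98 CPM (edgeR log2 change 1.12, SE 0.30, adjusted p 0.0104). Cpt1b, the form of muscle and brown fat, had almost no counts, but 81.4% of its exon bases lie in the readthrough gene Gm44502 on the same strand, and reads in both may have been left uncounted. Cpt2, which acts on the matrix side of the translocase, did not pass (edgeR log2 change −0.28, SE 0.14, adjusted p 0.145). The plasma membrane carnitine transporter Slc22a5 fell (edgeR log2 change −1.30, SE 0.33, adjusted p 0.00712), as did Crat, which loads acetyl groups on carnitine (edgeR log2 change −0.48, SE 0.15, adjusted p 0.0241), although Crat was lost without WT 1, WT 4 or db/db 1.

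Around Slc25a1, 9 genes of citrate export and use were tested, of which 3 fell (33.3%, near the share of all genes). Fasn, the fatty acid synthase, fell from 5913 ± 1205 to 1731 ± 696 CPM (edgeR log2 change −1.77, SE 0.27, adjusted p 9.57e-05). Pcx, which makes oxaloacetate from pyruvate, fell from 262 ± 16.6 to 135 ± 9.32 CPM (edgeR log2 change −0.96, SE 0.12, adjusted p 1.82e-05). Acly, which cleaves the exported citrate, did not pass (edgeR log2 change −0.45, SE 0.20, adjusted p 0.114). Of 6 genes of the malate-aspartate and glycerol phosphate shuttles, 2 rose and 1 fell (50.0%). Got2, the matrix aspartate aminotransferase, rose from 26.9 ± 4.17 to 79.7 ± 9.03 CPM (edgeR log2 change 1.57, SE 0.16, adjusted p 1.93e-06) and stayed past the threshold with the muscle score (1.30, adjusted p 0.00107). Its cytosolic form Got1 rose too (edgeR log2 change 1.69, SE 0.43, adjusted p 0.00666), but with the muscle score its log2 fold change was 0.20 (adjusted p 0.839). Gpd1, the cytosolic glycerol phosphate dehydrogenase, fell (edgeR log2 change −0.56, SE 0.17, adjusted p 0.0224), and the call was lost without WT 2, WT 4 or db/db 3.

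Around Slc25a44, 7 genes of branched-chain amino acid breakdown were tested, of which 2 fell (28.6%, near the share of all genes). Dbt, a core subunit of the branched-chain keto acid dehydrogenase, fell from 141 ± 4.15 to 80.8 ± 10.5 CPM (edgeR log2 change −0.80, SE 0.13, adjusted p 0.000207), and its partner subunit Bckdha fell by 0.77 on the log2 scale, although B3gnt8 covers 61.7% of Bckdha on the other strand. Bcat2, the mitochondrial transaminase, went from 17.6 ± 5.94 to 9.80 ± 4.51 CPM and did not pass (edgeR log2 change −0.82, SE 0.32, adjusted p 0.0672). It did pass in edgeR with the replicate number as a block (adjusted p 0.0408) and without WT 2 or db/db 1. Of 14 genes of cofactor synthesis, 4 fell (again 28.6%). These were Nampt, which limits NAD salvage (edgeR log2 change −0.93, SE 0.16, adjusted p 0.000323), Pank1, the first step of coenzyme A synthesis (edgeR log2 change −0.87, SE 0.20, adjusted p 0.00346), Coasy, its last enzyme (edgeR log2 change −0.57, SE 0.15, adjusted p 0.0102), and Nmnat1, which makes NAD in the nucleus (edgeR log2 change −0.99, SE 0.30, adjusted p 0.0204). The fall of Nmnat1 was lost without WT 2 or db/db 2. Of 17 iron, iron-sulphur and heme genes, 2 fell and 1 rose (17.6%, below the share of all genes), with edgeR log2 changes of −0.76 (adjusted p 0.000912) for Alad, of heme synthesis, −0.48 (adjusted p 0.0371) for Isca1, of iron-sulphur assembly, and 1.28 (adjusted p 0.0108) for Steap3, an iron reductase. The fall of Isca1 was lost without any of 6 mice (adjusted p up to 0.111).

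Of 73 nuclear-encoded subunits of respiratory complexes I to V, 37 were lower and 2 higher in db/db (53.4%; of the 69 that averaged 50 CPM or more 56.5%, beside 41.5% of all genes at that level), with a median log2 fold change of −0.38. The median of the tested carriers was −0.17, with −0.39 for the 13 carriers of at least 50 CPM and −0.11 for the 22 below, and the median of all genes of at least 50 CPM was −0.086. Cox6a1 of complex IV, Atp5j2 of ATP synthase and Uqcr10 of complex III fell, with edgeR log2 changes of −0.82 (adjusted p 0.000307), −0.79 (adjusted p 0.000406) and −0.81 (adjusted p 0.000524). Atp5g1, a copy of the ring subunit of ATP synthase, rose from 18.3 ± 8.22 to 86.6 ± 44.4 CPM (edgeR log2 change 2.26, SE 0.31, adjusted p 3.88e-05), and with the muscle score its log2 fold change was 1.12 (adjusted p 0.0117). With the muscle score as a covariate, 10 of the 68 partner genes called in these lists remained past the threshold, namely Mtch2, Ucp2, Sfxn3, Mpc2, Abcd3, Got2, Pcx, Fasn, Dbt and Atp5g1. The calls of the other partners named were lost in that fit, and besides Ucp1, Mpc1 and Got1 the log2 fold change shrank by over 1.5 times for Gpd1, to −0.27 (adjusted p 0.562), Crat, to −0.32 (adjusted p 0.474), Coasy, to −0.37 (adjusted p 0.381), and Steap3, to 0.83 (adjusted p 0.393).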

How the data were processed

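BAT of 4 WT and 4 db/db mice was profiled by bulk mRNA-seq, with libraries made from total RNA and single-end reads. The authors deposited raw counts per Ensembl gene. The study's methods name bbduk, STAR on mm10 and HTSeq-count for these counts, whereas the submitters' processing notes name Trimmomatic, HISAT2 and DESeq2, with the builds mm10 and GRCm38. The strand setting, the annotation release and any use of molecular identifiers are not given in the sources used here, so that PCR copies may be included and reads of overlapping genes may be misassigned. Deposited normalized values and the sample sheet were not used.

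Symbols, positions and exons came from GENCODE M21 on mm10 (30934 of 31053 identifiers matched). Genes were filtered with filterByExpr (minimum count 10, minimum total 15), which left 9264, and scaled by TMM. Genotype was the single term of a quasi-likelihood fit in edgeR 4.0.16 (R 4.3.3), and a gene passed at a Benjamini-Hochberg adjusted p under 0.05 over all genes. SEs were derived from the F statistic and 95% intervals from the SE with the normal quantile. Such intervals are narrower than the F test implies and can exclude no change where the unadjusted p is over 0.05. For paralog ratios all permutations of the 8 mice gave an exact two-sided p, adjusted over 10 pairs. Floors cover counting error only, and intervals and p-values the spread between these mice. Exact 75-base matches were searched among GENCODE transcripts. Procedures were tested on simulated data. Promoters came from RefSeq on GRCm38.p6.

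The members, substrate classes, pairs and gene lists were chosen with earlier results of these data known. The values of 1 tested carrier and 1 partner gene, which count in all totals, are not reported here; every other member with at least 20 counts is accounted for. Values of all mice are given for each member past the threshold and for both genes of a pair at the smallest p, and up to 4 partner genes per list are named by their adjusted p, besides Ucp1, Ucp2, Ucp3, Mpc1, Mpc2, Cpt1a, Cpt1b, Cpt2 and Bcat2. Mtch1, Acly and the marker genes Adipoq and Lepr were named beyond that rule. Erythroid, neutrophil and endothelial markers were also summed. Alternatives were DESeq2 1.42.0, limma-voom (limma 3.58.1), 3 other scalings, 2 other filters, the replicate number as a block, a skeletal muscle score as covariate and leaving out each mouse. Mice numbered alike in both genotypes are different animals, and the number did not pair them (correlations of their deviations, −0.073 to 0.061). Figures were drawn with matplotlib 3.10.9.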

Additional observations from a re-analysis of the deposited data

Results flagged for a closer look

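In 4 of 90 sets of 4 mice, the extreme mouse stood apart from the other 3 by more than Dixon's 95% critical value, where chance gives about 4.5. In WT 1, Slc25a23 was at 107 CPM, against 87.0 to 87.9 CPM. In db/db 1, the dicarboxylate carrier Slc25a10 was at 25.0 CPM, against 9.31 to 11.2 CPM in the other db/db mice. This is also the mouse with the highest summed muscle markers (13614 CPM), whose part in the value of this mouse was not tested. With the muscle score as a covariate, the log2 fold change of Slc25a10 was 0.98 in edgeR (adjusted p 0.444). In db/db 4, Slc25a25 was at 17.5 CPM, against 3.55 to 5.73 CPM. In the same mouse, the log2 ratio of the glutathione carriers Slc25a39 to Slc25a40 was 6.41, against 4.77 to 4.82. Slc25a40 was at 2.6 CPM there, against 5.41 to 7.09 CPM in the other db/db mice, and Slc25a39 at 237 CPM, against 156 to 206 CPM.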

How the results depend on the processing

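The 6 higher and 9 lower members stayed within 1.5 times those counts under DESeq2, limma-voom, 3 other scalings, no filter and the replicate block. Without the filter, Slc25a25 (adjusted p 0.027) and Slc25a35 (adjusted p 0.0173) also passed in edgeR. At least 10 counts in every mouse left 27 members to test and 3 higher. The muscle score as a covariate gave 1 higher and 3 lower members, 846 calls in place of 2568 over all genes, and 10 in place of 68 in the partner lists. Leaving out each mouse gave 4 to 6 higher and 6 to 10 lower members, 2236 to 2483 calls over all genes and 49 to 72 in the partner lists. Over 278 member tests with a mouse left out, 25 calls were lost and 3 gained (Slc25a22 without db/db 2, Slc25a25 without WT 4, Slc25a35 without WT 3). Slc25a37 was also lost in limma-voom (adjusted p 0.0673), and Slc25a39 (0.0582) and Slc25a11 (0.0699) under the stricter filter. With the replicate block, 7 members were higher and 8 lower: Slc25a11 was lost (adjusted p 0.0561) and Slc25a25 gained (0.0299). Equal replicate numbers mark different animals, and that block changed no other member's call. No member past the threshold changed direction. Among those that did not pass, 6 with log2 fold changes near 0 (Slc25a28, Slc25a30, Slc25a34, Slc25a36, Slc25a40 and Slc25a48) took the other sign under at least 1 alternative, as did the paralog ratios Slc25a24 to Slc25a25 and Slc25a34 to Slc25a35 with a mouse left out. With 3 counts equal to 0.902 to 1.33 CPM, differences of members near that level are imprecise; without the filter none of the 4 members with 20 or more counts that it left out passed in edgeR (adjusted p 0.0964 to 0.78; Slc25a29 alone had an unadjusted p under 0.05, at 0.0225).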

Other observations

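The db/db mice varied more among themselves than the WT mice over the tested carriers, with a median coefficient of variation of 26.2% against 14.9%. This difference was not tested. WT 4 was the highest of all 8 mice for 10 of the 35 tested members, and db/db 1 was the highest for 6 besides being the lowest for 13. The same was not counted over all genes, so that these counts cannot be read as a trait of the carriers. Neutrophil markers summed to 0.752 to 12.7 CPM in WT and 23.5 to 27.4 CPM in db/db. Of these 7 markers S100a8 passed (edgeR log2 change 2.72, adjusted p 0.000201), S100a9 did not (1.06, adjusted p 0.162), and Ly6g, Mmp8, Retnlg, Cxcr2 and Csf3r averaged under 1 CPM in both genotypes and were not tested. Endothelial markers summed to 432 to 496 CPM in WT and 316 to 380 CPM in db/db. Mitochondrially encoded genes took 31.9% to 34.0% of all counts in WT and 30.7% to 37.6% in db/db. Among the adipocyte markers, Plin1 and Fabp4 rose and the other 4 tested did not pass in edgeR.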
